A study of Mus musculus with 4 samples.

Results

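The renin-angiotensin system of fat is described here through 9 genes, Agt, Ren1, Ace, Agtr1a, Agtr1b, Agtr2, Atp6ap2, Enpep and Lnpep, in subcutaneous white adipose tissue of mice given BML-260 or vehicle. The genes were chosen by gene name from the deposited table, in which all 9 were found among 51912 genes, and with earlier results of these libraries known, among them the lower level of Agt with BML-260. Their BML-260 against vehicle values are therefore a description and support nothing by themselves. BML-260 is known as an inhibitor of the dual-specificity phosphatase DUSP22, and the vehicle was dimethyl sulfoxide (DMSO). There were 2 BML-260 libraries and 2 vehicle libraries, labelled A and B in each group. All came from C57BL/6 mice aged 8 weeks. The series speaks of 8 mice, 4 per treatment. No source used here says which mice each library holds, so SDs and tests measure the spread between these libraries, which may be partly technical. Dose, route and length of treatment and the sex of the mice were not stated either.

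Angiotensinogen, the product of Agt, is cut by renin to angiotensin I, which angiotensin-converting enzyme (Ace) turns into the active peptide angiotensin II. Angiotensin II acts on type 1 receptors, of which mice have the copies Agtr1a and Agtr1b, and on the type 2 receptor (Agtr2), and aminopeptidases trim it further. White adipocytes are a known source of angiotensinogen outside the liver, and renin in the blood comes mainly from the kidney.

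The promoters of 3 of the genes are shown first, because Agt and Enpep had the largest decreases with BML-260 among the 6 genes with enough counts for a fit and Atp6ap2 differed little. RefSeq windows of GRCm38.p6 were found for 8 of the 9 genes, all but Agtr1a. Each printed stretch runs 5' to 3' on the gene's own strand, from 250 bases before the RefSeq start to 10 after it. It lies at chr8:124569697-124569956 on the minus strand for Agt, at chr3:129332740-129332999 on the minus strand for Enpep and at chrX:12587509-12587768 on the plus strand for Atp6ap2. Capitals mark TATAAA and TTCNNNGAA, the paired half-sites that STAT factors can bind, in Agt and Enpep. In Atp6ap2 they mark CCAAT and GGGCGG. Enpep also holds CCAAT in reverse form, 77 bases before its RefSeq start, which is left in small letters. Both strands were searched, so the capitals also show these motifs as their reverse complements. In Atp6ap2 a reversed GGGCGG overlaps a CCAAT by 1 base.
Agt: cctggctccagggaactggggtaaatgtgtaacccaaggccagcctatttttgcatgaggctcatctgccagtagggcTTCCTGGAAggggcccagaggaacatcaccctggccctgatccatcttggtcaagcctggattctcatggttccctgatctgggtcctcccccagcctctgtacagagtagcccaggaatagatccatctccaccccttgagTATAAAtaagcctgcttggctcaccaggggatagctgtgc
Enpep: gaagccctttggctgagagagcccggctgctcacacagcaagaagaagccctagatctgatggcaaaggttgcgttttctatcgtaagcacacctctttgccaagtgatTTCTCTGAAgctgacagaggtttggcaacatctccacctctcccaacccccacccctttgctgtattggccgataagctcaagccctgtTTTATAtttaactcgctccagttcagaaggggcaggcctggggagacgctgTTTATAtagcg
Atp6ap2: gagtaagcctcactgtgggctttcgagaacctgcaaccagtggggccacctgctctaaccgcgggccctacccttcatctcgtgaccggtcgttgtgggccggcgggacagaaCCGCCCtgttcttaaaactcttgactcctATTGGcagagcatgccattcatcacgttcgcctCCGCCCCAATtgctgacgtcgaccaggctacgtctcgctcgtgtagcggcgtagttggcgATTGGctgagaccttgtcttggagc

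Agt carried TATAAA 30 bases before its start, the usual distance of a TATA box, and Enpep carried the reverse form 30 bases before its start in the GENCODE annotation, which lies 29 bases downstream of the RefSeq start. TATAAA in either orientation was in 13.6% of 32851 RefSeq promoter windows of the same 300-base length. Among the other windows of the set, Ren1, Agtr1b and Ace also held it, 29, 31 and 31 bases before the RefSeq start. Atp6ap2, Lnpep, Agtr2 and a second Ace window, which lies inside the gene, held none. TTCNNNGAA was in the Agt and Enpep windows and in none of the other 7 windows of the set. It was in 8.3% of all windows. Agt and Enpep were picked for their decreases, so nothing is read from this, and a part of the motif in the decreases was not tested. CCAAT was in 37.4% and GGGCGG in 35.7% of all windows. Besides Atp6ap2, CCAAT was in the windows of Enpep, Agtr1b and Agtr2 and in the second Ace window. GGGCGG was also in the first Ace window and in Lnpep. The cyclic AMP response element TGACGTCA, in 1.8% of all windows, was in none of the 9. Its core TGACG, in 20.8% of all windows, was in the windows of Atp6ap2 and Lnpep. The windows also differed in CpG content, with 1 CpG in Agt and in Ren1 and 7 in Enpep, against 24 in Atp6ap2, 29 in the first Ace window and 30 in Lnpep, where the median of all windows was 7. A match of letters describes the window and does not show that a factor binds there.

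Expected counts, the estimated reads per gene, summed to 19999836 and 23726781 in the BML-260 libraries and to 20407836 and 23032466 in the vehicle libraries. All 8 adipocyte markers were detected in every library, with summed levels of 23131 and 33875 CPM (counts scaled to library size) with BML-260 and 39505 and 39665 CPM with vehicle. The libraries also differed in other tissue content. The 8 skeletal muscle markers summed to 22177 and 34701 CPM with BML-260 and to 271 and 7795 CPM with vehicle A and B, with none at 0. The 5 B cell markers summed to 142 CPM in BML-260 A and to between 1.57 and 2.60 CPM in the other 3 libraries, and the 5 T cell markers to 50.2 CPM there and to at most 8.43 CPM elsewhere. Epithelial markers, 3 of 6 of them at 0 in some library, summed to at most 2.55 CPM. In bulk tissue, fewer cells of a type and less RNA per cell cannot be told apart. Of the 9 genes, 6 had enough counts to enter the fit across 15643 genes. Ren1, Agtr1b and Agtr2 did not pass the count filter and are given as counts.

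Agt had the largest difference between the groups of the 6 genes in the fit. It lies on chromosome 8 at 124556534 to 124569706 on the minus strand of GRCm38 and no other annotated gene overlaps it. Its level was 19.6 and 25.7 CPM in BML-260 A and B, against 64.2 and 76.8 CPM in vehicle A and B. Both BML-260 libraries lay well below both vehicle libraries, and the groups did not overlap. The means were 22.7 ± 4.31 CPM with BML-260 and 70.5 ± 8.93 CPM with vehicle (SD, n = 2 each), from 408 and 565 expected counts, called reads from here on, with BML-260 and 1353 and 1778 with vehicle. The log2 fold change was -1.64 (SE 0.18), a level 3.11-fold lower with BML-260. Set pair by pair, a BML-260 library held between 0.256 and 0.401 of the level of a vehicle library.

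Ren1 encodes renin, the protease that starts the cascade, and was close to absent from the reads. It had 0 and 1 reads with BML-260 and 8 and 1 with vehicle, so 8 of its 10 reads were in vehicle A. The ratio of summed counts, BML-260 over vehicle, was 0.115 with an exact 95% interval of 0.0026 to 0.83 that covers counting error only. Vehicle B held as many Ren1 reads as BML-260 B, so the groups overlapped. The upper end of the 95% interval of its level, for counting error only, was 0.130 CPM with BML-260 and 0.386 CPM with vehicle.

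Atp6ap2 encodes the prorenin receptor, which is also an accessory subunit of the vacuolar proton pump. Its level was 46.3 and 39.2 CPM in BML-260 A and B, against 41.6 and 40.4 CPM in vehicle A and B. The vehicle values lay between the BML-260 values. The log2 fold change was 0.06 (SE 0.13).

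Ace, the converting enzyme known as an endothelial surface protein, had 219 and 197 CPM with BML-260, against 163 and 259 CPM with vehicle. Here the vehicle libraries spanned the BML-260 ones, 95.9 CPM apart, while the group means differed by -3.27 CPM. The log2 fold change was -0.02 (SE 0.25), while leaving out vehicle A gave -0.35 and leaving out vehicle B gave 0.35. Of the 6 endothelial markers, none at 0, 5 lay lower in both BML-260 libraries, against 21.5% of all tested genes. The 6 markers summed to 446 and 571 CPM with BML-260 and to 723 and 642 CPM with vehicle. Per 1000 of their summed reads there were 491 and 346 reads of Ace with BML-260 and 226 and 404 with vehicle, and the groups overlapped. Against single markers, the Ace ratio was higher in both BML-260 libraries for 1 of 6 and lower in both for 0. The part of endothelium in the Ace values was not tested. An antisense gene, Gm11651, overlaps Ace and was listed at 0 in all 4 libraries.

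Enpep encodes aminopeptidase A, which turns angiotensin II into angiotensin III and is known from pericytes and kidney. Its level was 65.2 and 72.2 CPM in BML-260 A and B, against 99.5 and 115 CPM in vehicle A and B. Both BML-260 libraries lay lower than both vehicle libraries. Means were 68.7 ± 4.92 CPM with BML-260 and 107 ± 10.8 CPM with vehicle (SD, n = 2 each). The log2 fold change was -0.64 (SE 0.13), a level 1.56-fold lower. The 8 pericyte and smooth muscle markers, none at 0, summed to 568 and 795 CPM with BML-260 and to 763 and 773 CPM with vehicle. Of these, 4 lay lower and 1 (Abcc9) higher in both BML-260 libraries, against 44.3% of all tested genes in either direction. Set against each marker in turn, Enpep stood lower in both BML-260 libraries for 5 of the 8, and the ratio with BML-260 was 0.385 to 1.35 of that with vehicle. Set against the adipocyte markers it stood lower in both for 4 of 8, at 0.731 to 1.06 of the vehicle ratio. Set against the endothelial markers, 5 of which were themselves lower in both BML-260 libraries, it stood lower in both for 1 of 6, at 0.755 to 1.19 of the vehicle ratio, so for 5 of these 6 the groups overlapped. The part of these cells in the Enpep values was not tested.

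Lnpep encodes the insulin-regulated aminopeptidase, which resides in the vesicles of the glucose transporter GLUT4 and also binds the angiotensin fragment angiotensin IV. It was the one gene of the 6 that lay higher in both BML-260 libraries, with 40.4 and 31.0 CPM, against 30.3 and 15.1 CPM with vehicle. The values of BML-260 B and vehicle A nearly touched, and the vehicle libraries lay 15.2 CPM apart, more than the 13.0 CPM between the group means. The log2 fold change of 0.65 (SE 0.35) became 0.23 when vehicle B was left out and 1.21 when vehicle A was.

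Agtr1a was the receptor gene with a clear signal. It had 10.5 and 9.29 CPM with BML-260, against 12.3 and 12.1 CPM with vehicle. Both BML-260 libraries were slightly lower, and the log2 fold change was -0.30 (SE 0.18), or -0.22 without BML-260 B. Set against each of 6 fibroblast and progenitor markers, Agtr1a stood lower in both BML-260 libraries for 3, at 0.711 to 1.01 of the vehicle ratio over the 6. Set against the 8 pericyte and smooth muscle markers, it stood lower in both for 1 and higher in both for 1. Per 1000 summed reads of those 8, Agtr1a had 18.5 and 11.7 reads with BML-260 and 16.1 and 15.7 with vehicle, and the groups overlapped. The 6 fibroblast and progenitor markers, none at 0, summed to 1564 and 1154 CPM with BML-260 and to 1483 and 1600 CPM with vehicle, and the part of these cells in the Agtr1a values was not tested.

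The other angiotensin receptor genes were at the limit of detection. Agtr1b had 0 and 3 reads with BML-260 and 2 and 0 with vehicle. Its ratio of summed counts, BML-260 over vehicle, was 1.55 with an exact 95% interval of 0.178 to 18.6, for counting error only. Agtr2 had 5 and 4 reads with BML-260 and 0 and 1 with vehicle, and its groups did not overlap. The ratio of its summed counts, BML-260 over vehicle, was 9.31 with an exact 95% interval of 1.29 to 408, for counting error only. Agtr2 is known for its high expression in fetal tissue, and at 10 reads in all its level in this depot is poorly fixed. Agtr1a and Agtr1b are closely similar copies, and the counting could split reads between them.

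**Figure D1:**
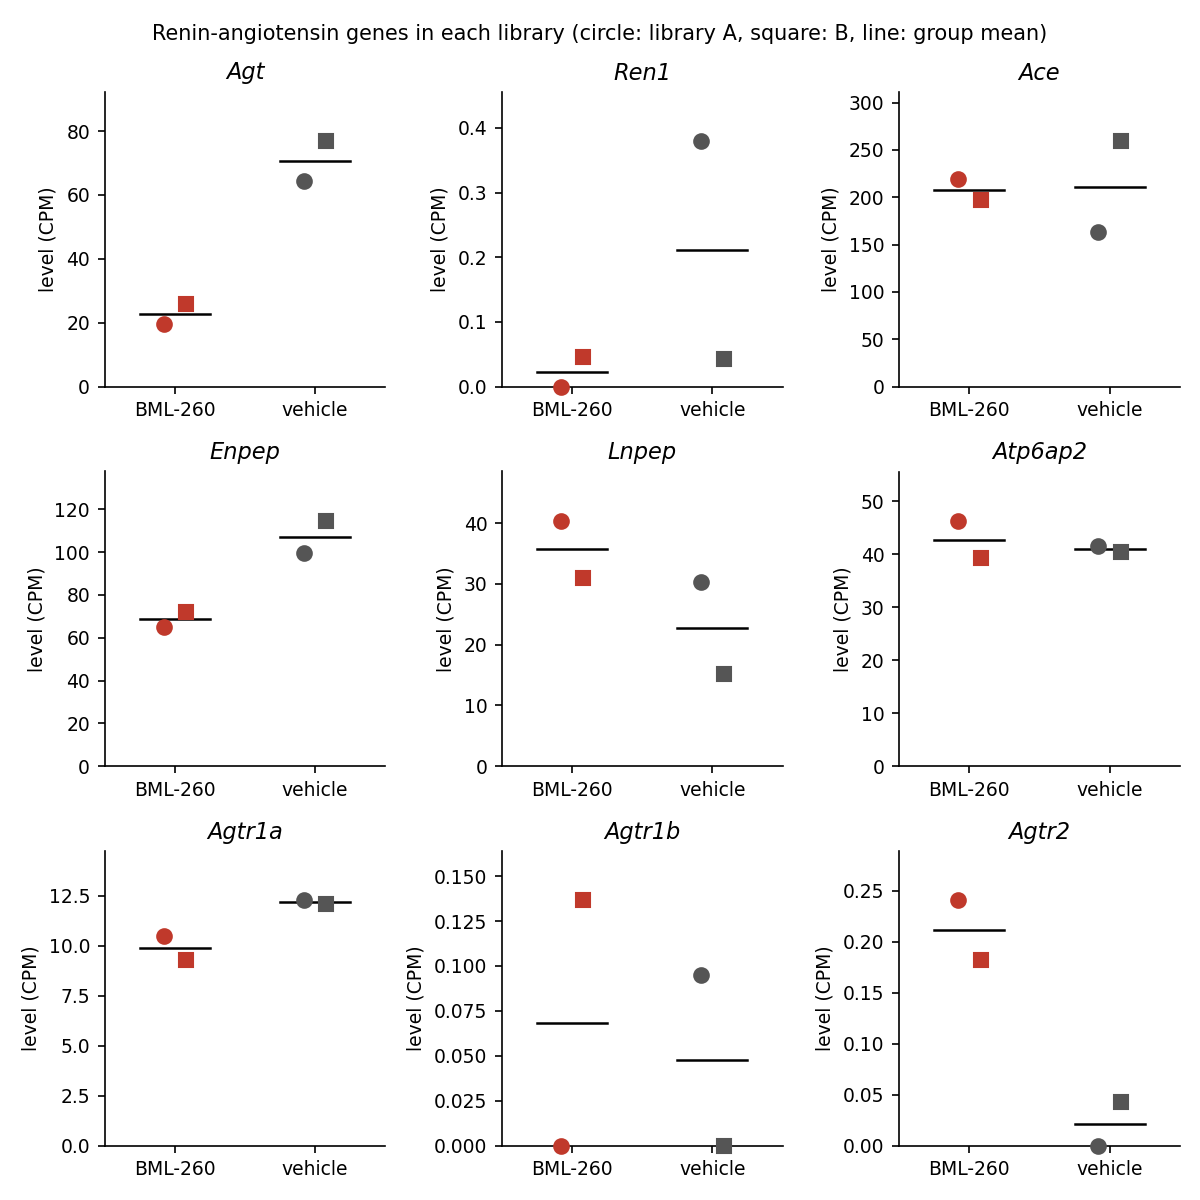
Level of each of the 9 genes in CPM (linear axes from 0), BML-260 libraries in red and vehicle libraries in grey, circles for library A, squares for B and a line at the group mean. Agt and Enpep lie lower in both BML-260 libraries, Ace and Atp6ap2 overlap, and Ren1, Agtr1b and Agtr2 reach at most 0.38 CPM.

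Across all genes, the quasi-likelihood test of edgeR, adjusted after Benjamini and Hochberg, called 0.00639% of tested genes at an adjusted p under 0.05, which is 1 gene, Ucp1, and 0 of the 6 tested members. Without a filter on low counts it called Agt and Enpep, among 651 genes called of 24481. Without vehicle B the log2 fold change of Agt was -1.50. With the filter and all libraries, an unadjusted p under 0.05 in edgeR counted 2 of the 6, Agt and Enpep, both lower, against 11.1% of all tested genes. DESeq2 called the same 2 genes, against 2.76% of the 14733 genes to which it gave an adjusted p, and limma-voom called 0 of the 6. The groups did not overlap in 4 of the 6, against 44.3% of all tested genes, and 3 of these were lower with BML-260, against 21.5% of all. Since the genes were chosen with this contrast known, nothing is read from these counts. In the authors' deposited table Agt has a log2 fold change of -1.47 and is marked as changed. In the authors' deposited table Enpep has -0.61 with an adjusted p of 0.0169 and is not marked. The authors' deposited table holds 357 genes whose adjusted p is under 0.05 and marks 176 of them, and the smallest log2 fold change among these is 1.01 in size.

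Levels of different genes were compared as FPKM, which is per length of transcript. With BML-260, Ace stood first at 52.0 ± 3.38 FPKM, followed by Atp6ap2 at 20.9 ± 2.86, Enpep at 18.1 ± 0.30 and Agt at 14.1 ± 2.42 FPKM (SD, n = 2). With vehicle, Ace stood first at 54.3 ± 15.8 FPKM, followed by Agt at 44.7 ± 4.82, Enpep at 28.6 ± 2.05 and Atp6ap2 at 20.4 ± 0.81 FPKM (SD, n = 2). Agt thus stood after Enpep with BML-260 and directly after Ace with vehicle. Ace and Agt overlapped in FPKM in the vehicle libraries, and with BML-260 the lower Atp6ap2 value, 18.9 FPKM, was close to the higher Enpep value, 18.3 FPKM. The FPKM of Agt over that of Ace was 0.228 and 0.318 in the BML-260 libraries and 0.957 and 0.735 in the vehicle libraries. Lnpep followed with 7.24 ± 1.47 FPKM with BML-260 and 4.70 ± 2.29 with vehicle. Agtr1a had 5.33 ± 0.77 FPKM with BML-260 and 6.49 ± 0.18 with vehicle, below Lnpep with BML-260 and above it with vehicle. Ren1, Agtr1b and Agtr2 had at most 0.306 FPKM in any library. Over the 4 libraries, the mean FPKM of Ace exceeded that of 92.9% and the mean of Agtr1a that of 63.8% of the 24524 genes with a value above 0.

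**Figure D2:**
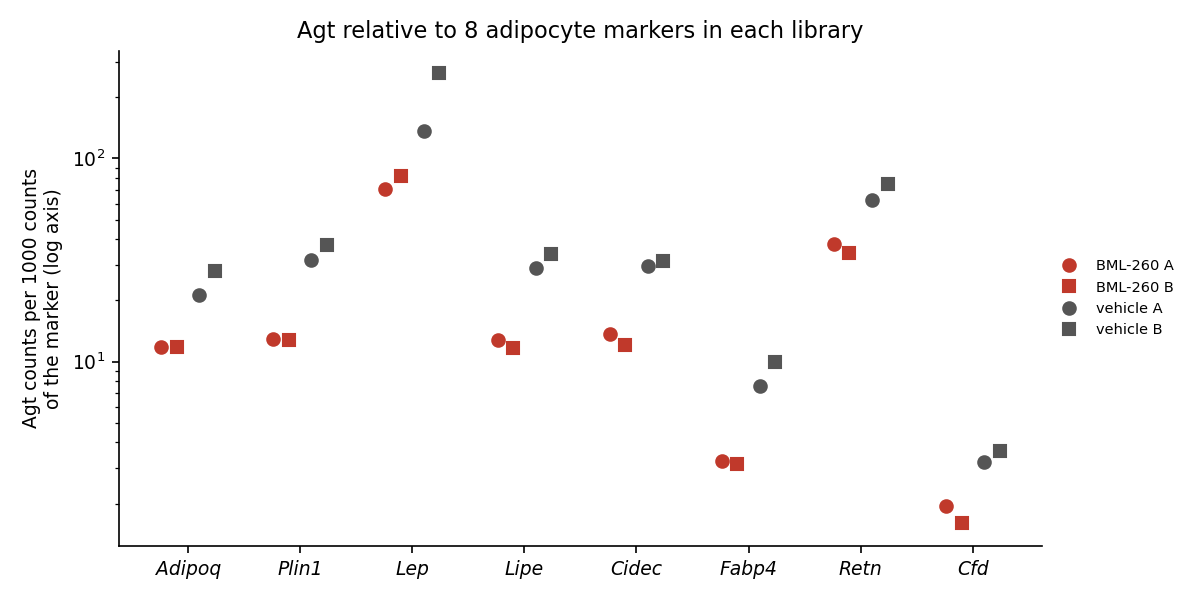
Reads of Agt per 1000 reads of each of 8 adipocyte markers (log axis) in the BML-260 libraries (red) and vehicle libraries (grey), circles for library A and squares for B. For all 8 markers both BML-260 libraries lie under both vehicle libraries. The decrease of Agt was known when the genes were chosen.

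Because adipocyte markers were also lower with BML-260, Agt was set against them within each library. The median log2 fold change of the 8 markers was -0.37, with all 8 below zero. Of the 8, 6 lay lower in both BML-260 libraries, against 21.5% of all tested genes. EdgeR called 0 of the 8 and DESeq2 1, against 2.76% of the genes to which DESeq2 gave an adjusted p, in either direction. Per 1000 reads of Adipoq, the adiponectin gene, there were 11.8 and 11.7 reads of Agt with BML-260 and 21.3 and 28.0 with vehicle. Per 1000 reads of Plin1, the coat protein of lipid droplets, there were 12.9 and 12.8 with BML-260 and 31.7 and 37.6 with vehicle. For each of the 8 markers the Agt ratio was lower in both BML-260 libraries, at 0.362 to 0.523 of the vehicle ratio. The decrease of Agt was known when the genes were chosen, and the 8 markers share a cell type. These ratios are therefore a description, and the part of adipocytes in the Agt values was not tested. The 5 beige and brown adipocyte markers were each higher in both BML-260 libraries. The groups did not overlap in 44.3% of all tested genes, in either direction. These 5 markers summed to 456 and 484 CPM with BML-260, against 76.3 and 92.0 CPM with vehicle. Ucp1 among them was called by edgeR (adjusted p = 0.00969, not called without vehicle A), and the part of these cells in the Agt values was not tested. Skeletal muscle markers were also highest in the 2 BML-260 libraries. Within each group, library B held more muscle marker signal than library A and also more Agt, and the part of muscle was not tested.

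The other genes of the pathway, which form or break down angiotensin peptides or bind them, did not stand out. Of 18 listed genes 14 were tested, and edgeR called 0 at an adjusted p under 0.05, with 0 at an unadjusted p under 0.05, 0 of 13 with an adjusted p by DESeq2 and 0 by limma-voom. Their median log2 fold change was 0.07, with 10 above and 4 below zero, against a median of 0.02 over all tested genes. Nln, an oligopeptidase known to form the vasodilator fragment of angiotensin, had 42.8 and 50.8 CPM with BML-260 and 42.5 and 37.6 CPM with vehicle, or 0.23 on the log2 scale (SE 0.14, edgeR adjusted p = 0.605). Rnpep, aminopeptidase B, had a log2 fold change of -0.12 (SE 0.11) and Ctsa, the carboxypeptidase cathepsin A, 0.13 (SE 0.17).

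The mast cell enzymes were detected in every library, and some chymases are known as a route to angiotensin II that bypasses Ace. Cma1, a chymase, had 21.6 and 22.7 CPM with BML-260 and 34.5 and 18.1 CPM with vehicle. Mcpt4, another chymase, had a log2 fold change of -0.20 (SE 0.24) and Cpa3, a carboxypeptidase, -0.16 (SE 0.24). In all 3 genes vehicle A was highest and vehicle B lowest, with the BML-260 libraries between them. The 6 mast cell markers as a list, which holds these 3, showed the same order, at 103 and 102 CPM summed with BML-260 and 143 and 92.2 CPM with vehicle.

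Receptors of the counter-regulatory arm were near zero. Mas1, the receptor of the vasodilator fragment of angiotensin, had at most 0.237 CPM in any library. Mrgprd, a further receptor, had 0 reads in all 4 libraries. Agtrap, a protein that binds the type 1 receptor, had 43.3 and 30.9 CPM with BML-260 and 29.3 and 39.0 CPM with vehicle, with the groups interleaved.

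**Figure D3:**
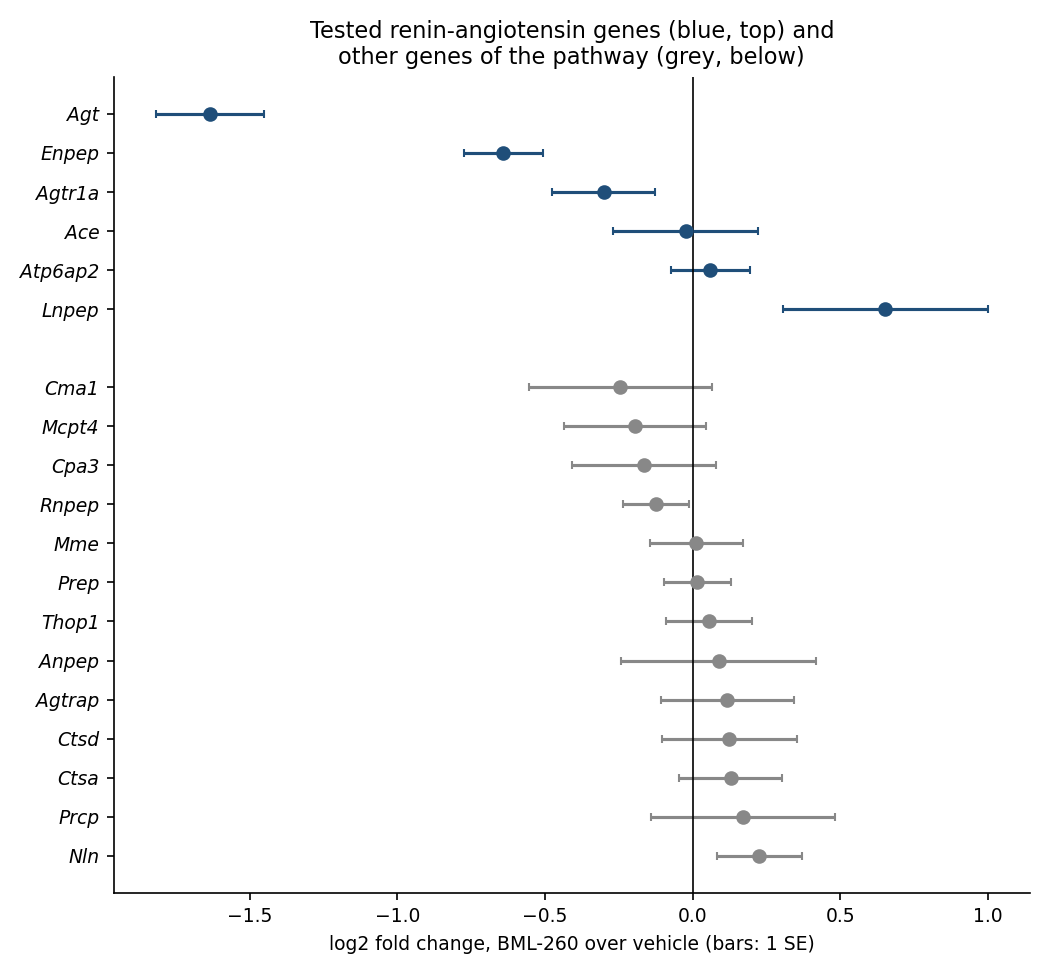
Log2 fold change of BML-260 over vehicle with 1 SE for the 6 tested genes of the set (blue, top) and 13 of the 14 tested other genes of the pathway (grey, below). The blue points run from -1.64 for Agt to 0.65 for Lnpep, and the grey points lie between -0.24 and 0.23.

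Gene groups that border on the pathway were read against the same fit. Among the 18 subunits of the vacuolar proton pump, which Atp6ap2 belongs to, 0 were called by edgeR or limma-voom. Their median log2 fold change was 0.05. An unadjusted p under 0.05 counted 1 gene higher, against 11.1% of all tested genes in either direction. DESeq2 also called this gene, against 2.76% of the genes to which it gave an adjusted p. It was Atp6v0d2, a subunit isoform known from osteoclasts and macrophages, with 9.20 and 4.01 CPM with BML-260 and 1.33 and 2.16 CPM with vehicle (log2 fold change 1.91, SE 0.51, edgeR adjusted p = 0.357). Atp6v0e had a log2 fold change of -0.25 (SE 0.11). Macrophage markers, 4 of 4 detected, were highest in the same library, BML-260 A, at 757 CPM summed, against 385 CPM in BML-260 B and 416 and 509 CPM with vehicle. Their part in the Atp6v0d2 value was not tested.

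In the kallikrein-kinin system, whose peptide bradykinin Ace also breaks down, 4 of 9 genes were tested. EdgeR and limma-voom called 0 of the 4, and DESeq2 called 0 of the 2 to which it gave an adjusted p. An unadjusted p under 0.05 counted 1 gene higher, against 11.1% of all tested genes in either direction. That gene was Kng2, a kininogen gene, at 1.11 and 1.002 CPM with BML-260 and 0.285 and 0.173 CPM with vehicle (log2 fold change 2.19, SE 0.52, edgeR adjusted p = 0.329, none given by DESeq2). Cpm, a carboxypeptidase, had 0.57 (SE 0.42), and the receptor gene Bdkrb2 had at most 0.712 CPM in any library.

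Corticosteroid signalling, which angiotensin II engages through aldosterone, gave 8 tested genes of 10. EdgeR and limma-voom called 0. An unadjusted p under 0.05 counted 1 higher and 1 lower, against 11.1% of all tested genes in either direction. DESeq2 called 1 lower, against 2.76% of the genes to which it gave an adjusted p, in either direction. The lower gene was Fkbp5, a chaperone gene induced by glucocorticoids, with 39.6 and 68.2 CPM with BML-260 and 145 and 99.6 CPM with vehicle (log2 fold change -1.18, SE 0.32, edgeR adjusted p = 0.357). The higher gene was Tsc22d3, also induced by glucocorticoids, with 165 and 121 CPM with BML-260 and 80.1 and 95.8 CPM with vehicle (0.70, SE 0.20, edgeR adjusted p = 0.361). These 2 genes lay in opposite directions, while of the 8 tested genes 6 had a log2 fold change above zero and 2 below. Among the others, Sgk1 had 0.65 (SE 0.26) and Per1 0.24 (SE 0.25). The cause was not tested. The aldosterone synthase gene Cyp11b2 had 0 reads in all libraries, and the receptor genes Nr3c2 and Nr3c1 did not pass any of these tests.

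Genes known to respond to angiotensin II in vessels and fibroblasts were mostly on the higher side. Of 12 tested, 11 had a log2 fold change above zero, with a median of 0.34, against 8214 of 15643 and a median of 0.02 over all tested genes. EdgeR and limma-voom called 0 of them. An unadjusted p under 0.05 counted 2 higher, against 11.1% of all tested genes in either direction. DESeq2 called 2 higher, against 2.76% of the genes to which it gave an adjusted p, in either direction. Ccl2, a chemokine for monocytes, had 21.6 and 6.10 CPM with BML-260 and 2.42 and 3.20 CPM with vehicle (log2 fold change 2.30, SE 0.63, edgeR adjusted p = 0.359). It was highest in BML-260 A, the library that also held the most macrophage, B cell and T cell marker signal, and the part of those cells was not tested.

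Transcription factors known to act on the Agt promoter gave no call. Of 12 genes 11 were tested, and edgeR, DESeq2 and limma-voom called 0, with 0 at an unadjusted p under 0.05 and a median log2 fold change of -0.06. Stat3, a factor of the STAT family, had 140 and 144 CPM with BML-260 and 140 and 133 CPM with vehicle. The values with the smallest p were -0.20 (SE 0.11) for Usf2 and -0.37 (SE 0.21) for Pparg, the adipogenic nuclear receptor gene.

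Of 9660 genes with a mean of at least 10 CPM, Ston1, Timp4, Klb and Efna1 were among the 5 whose centred log2 profile over the 4 libraries lay nearest to Agt. Their Euclidean distance to Agt was 0.44 to 0.67 on the log2 scale. Timp4 is an inhibitor of matrix metalloproteinases abundant in fat, and Klb is the coreceptor for FGF21. Their log2 fold changes lay between -1.48 for Timp4 and -1.04 for Klb, all smaller in size than that of Agt. The 4 libraries are the same ones that give the Agt values, so this likeness is a description.

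**Figure D4:**
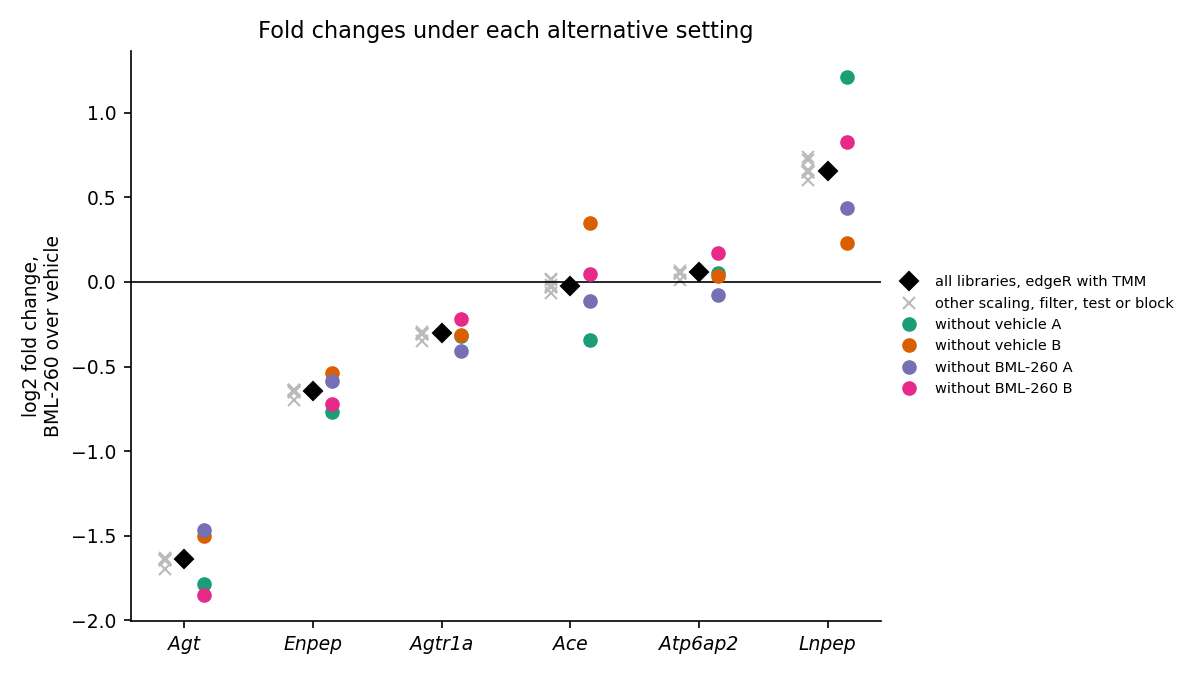
Log2 fold change of BML-260 over vehicle for the 6 tested genes with all libraries (black diamonds), under other scalings, filters, tests or the letter block (grey crosses) and with 1 library left out (coloured circles). Agt ranges from -1.85 to -1.47, Enpep and Agtr1a stay below zero, Lnpep stays above it, and Ace and Atp6ap2 fall on either side.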

How the data were processed

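Total RNA was taken with TRIzol and sequenced as standard Illumina libraries, as stated in the labels' protocols. Expected counts and FPKM stand in 1 table: the authors deposited expected counts per gene that are estimated and not normalized, beside the FPKM of each library. That deposited table also holds the authors' comparison of the groups, with p-values, adjusted p-values and log2 fold changes. Upstream tools were RSEM 1.2.31, HISAT2 2.1.0 and DESeq2 1.10.1 with build GRCm38.p5, per the submitters' processing notes, which give no roles. Whether counting used strand was not stated, so overlapping genes on opposite strands cannot be told apart.

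Expected counts were rounded, and filterByExpr left 15643 genes. The main test was edgeR 4.0.16 (R 4.3.3), quasi-likelihood, TMM scaling, group as the only term, two-sided, Benjamini-Hochberg adjusted over all tested genes at 0.05. There were 2 residual and 3.28 prior degrees of freedom. Each SE was obtained as the size of the log2 fold change over the root of its F statistic. CPM used TMM-scaled totals. Alternatives were DESeq2 1.42.0, limma-voom (limma 3.58.1), other scalings and filters, the library letter as a block, and leaving out each library. The edgeR, DESeq2 and limma-voom fits were also run on counts simulated with known changes and the dispersions estimated here. The only requirement set was that median log2 fold changes of edgeR lie near the planted ones. None was set for calls or for the other tests. Coordinates came from GENCODE vM21 of GRCm38, promoter sequences from RefSeq (GRCm38.p6).

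Genes named are the 9 members, the 6 genes of the wider list and 2 of every other list with the smallest unadjusted p, the 5 genes nearest to Agt at a pseudocount of 0.5, and markers of cell types. Others, such as Stat3, Agtrap and Nr3c1, were named after their values were seen. Some genes that these rules name are not reported here. Members and lists were chosen with earlier results of these data known.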

Additional observations from a re-analysis of the deposited data

How the results depend on the processing

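Under 11 alternatives the log2 fold changes of Agt, Enpep and Agtr1a stayed below zero and that of Lnpep above it, while Ace was below zero in 7 and Atp6ap2 in 1. With 1 library left out Agt ran from -1.85 to -1.47, Enpep from -0.77 to -0.54, Agtr1a from -0.41 to -0.22, Ace from -0.35 to 0.35, Atp6ap2 from -0.08 to 0.17 and Lnpep from 0.23 to 1.21. Without a filter on low counts edgeR called 565 genes higher and 86 lower, Agt and Enpep among the lower, and DESeq2 called 328 and 79. With the letter as a replicate block edgeR called 0 in each direction. What the letters stand for was not stated. The A minus B differences of the groups correlated at -0.0401 over genes, which cannot show whether the letters share a batch. Leaving out a library gave 0 to 300 genes higher and 0 to 9 lower. The most came without vehicle B, where Agt was called, and 0 without vehicle A. The lone library of a group is then assumed to vary like the others. The causes were not tested. No gene of the wider list was called under any of the 11. Genes with 10 or fewer reads in all are limited by depth.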
